A study of Mus musculus with 24 samples.

Results

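The genes described here are 8 transcription factor genes that act in fat cell formation: the CCAAT/enhancer-binding protein (C/EBP) genes Cebpa, Cebpb, Cebpd and Cebpg, the nuclear receptor gene Pparg, the zinc finger gene Zfp423, and the early B cell factor genes Ebf1 and Ebf2. They were taken by name from the 22368 genes of the mm9 annotation (protein-coding genes and Cebpd, which this annotation types as a pseudogene). Each gene was followed over its body with 10 kb on each side. The series holds 24 chromatin immunoprecipitation (ChIP-seq) samples of cultured mouse fibroblasts, of which the 17 peak lists were analysed and the 7 inputs were not used here.

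The cells were of 3 fibroblast types, all immortalised with the HPV E6/E7 genes. Mouse embryonic fibroblasts (MEF, C57BL/6, embryonic days 10 to 13) came as WT, as KI and as SG. MEF KI were from embryos of 129S-Prrx1tm1Jfm/Mmmh mice, which carry a mutated Prrx1, and the labels do not spell out KI. The paper describes this line as backcrossed to C57BL/6, with LacZ inserted into Prrx1. In KI against WT, the allele and any remaining strain background cannot be told apart. MMTV-CAF were fibroblasts of MMTV-PyMT breast cancer mice (FVB/NJ), and wound-healing fibroblasts came from the skin of the back of C57BL/6 mice at day 10 after wounding. Both were cultured as WT and SG. SG cells had received CRISPR/Cas9 with a guide RNA against Prrx1, the gene of a homeodomain transcription factor. For WT MMTV-CAF and WT wound-healing cells the paper names a control guide (SgNS). Whether MEF WT, the control of both KI and SG, had received it is not clear from the sample titles. H3K27ac, an acetylation of active promoters and enhancers, and H3K4me3, a methylation of gene starts, were profiled in all 7 cultures, and the protein PRRX1 in the 3 WT cultures only. The lists give no RNA or protein level of Prrx1, so its loss was not checked here.

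Fat cell formation follows a cascade. C/EBPβ and C/EBPδ are induced early, and they lead to C/EBPα and PPARγ, which sustain each other and switch on the genes of the fat cell. C/EBPγ pairs with the other C/EBP proteins and lacks a transactivating part of its own. ZFP423 favours the commitment of precursor cells and the expression of Pparg, and EBF1 and EBF2 act in the same lineage, EBF2 above all in precursors of brown fat. Several of these proteins work in fibroblasts outside fat too, C/EBPβ and C/EBPδ for example in the response to inflammation.

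Each group was a single library, so no difference was tested and no spread between replicates can be given. Sequencing depth is unknown. Values are set beside the same count over all genes. An H3K27ac or PRRX1 list gives 1 summit per peak with its −log10 p, and H3K27ac at a gene is given as the number of summits and as their summed −log10 p, as deposited or as a relative signal, which is that sum per 1000000 of the sum over the whole list. The H3K27ac lists held between 29325 (MEF KI) and 61603 (MMTV-CAF SG) summits, and MEF KI had the lowest median −log10 p in that mark (11.9, the others 15.2 to 21.2). The H3K4me3 lists held between 13125 and 29166 regions and the PRRX1 lists 3048, 8000 and 5698 summits in MEF, MMTV-CAF and wound-healing fibroblasts. Of 10 fibroblast markers 5 to 9 had H3K4me3 at a start. The 6 macrophage markers had none in any list, and the 5 fat cell markers none but Fabp4 in both MMTV-CAF lists. Of the 6 epithelial markers only Cdh1 had it, in MEF WT, MEF SG and both wound-healing lists. Of the 3 endothelial markers only Kdr had it, in every list but MMTV-CAF SG, and over more than 4 kb in both wound-healing lists. The summed relative H3K27ac signal of the endothelial markers was 26.9, 156 and 106 in the WT, KI and SG MEF. It was 75.6 and 157 in WT and SG MMTV-CAF, and 216 and 266 in WT and SG wound-healing cells. No other marker set was higher in every KI and SG culture than in its WT.

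H3K4me3 covered the starts of the C/EBP genes and Ebf1 in nearly every culture, while Zfp423 and Ebf2 were covered in some cultures only. Of the 8 genes, 7 had a region over an annotated start in MEF WT, 5 in KI MEF, 7 in SG MEF, 6 in MMTV-CAF WT, 8 in MMTV-CAF SG, 6 in WT wound-healing cells and 7 in SG wound-healing cells. The share of all genes with such a region was 53.1%, 41.4%, 51.4%, 52.4%, 52.9%, 54.7% and 55.2% in the same order. Regions wider than 4 kb lay at 2, 1, 0, 4, 5, 1 and 1 of the 8 genes, beside 5.02%, 1.49%, 3.59%, 15.2%, 12.8%, 4.83% and 8.58% of all genes. The broad regions were thus most frequent in the MMTV-CAF lists, for these genes and for all genes alike.

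**Figure D1:**
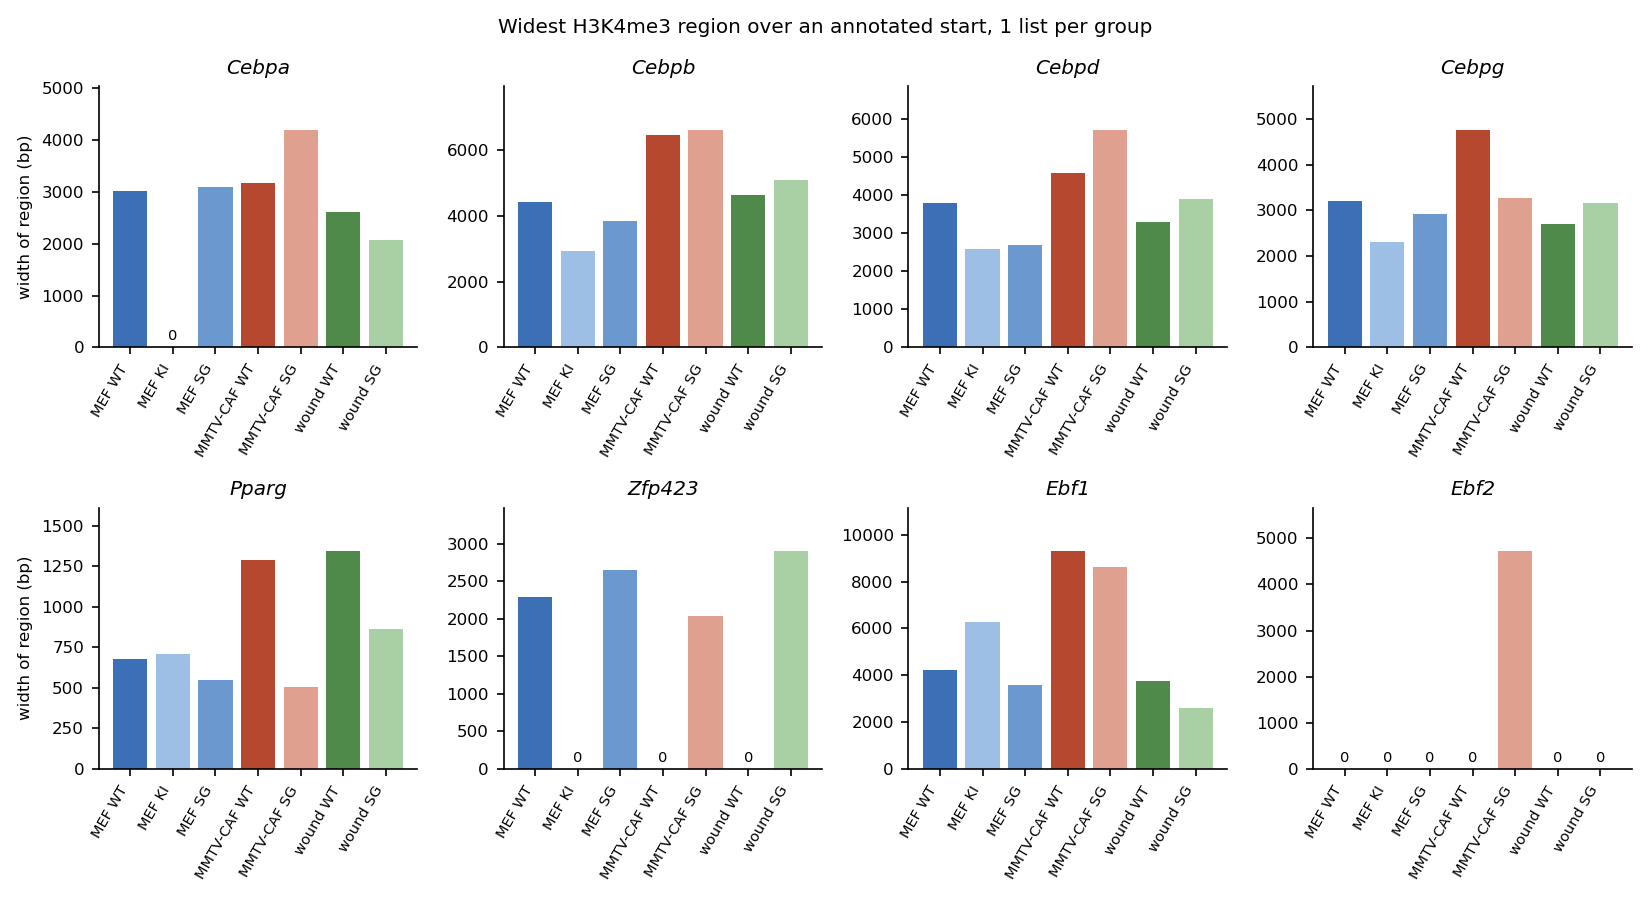
Width in bp (vertical axis, from 0, its own scale in each panel) of the widest H3K4me3 region over an annotated start of each gene, 1 bar per culture and 1 list per group, with 0 where no region covered a start. The widest bars are those of Ebf1 in MMTV-CAF, at 9300 and 8634 bp, the bars of Pparg stay at or below 1345 bp, and Ebf2 has a bar in MMTV-CAF SG only.

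H3K27ac was found at 5 to 8 of the 8 genes: 7 in MEF WT, 6 in KI MEF, 8 in SG MEF, 7 in MMTV-CAF WT, 8 in MMTV-CAF SG, 5 in WT wound-healing cells and 8 in SG wound-healing cells. Over all genes the share with a summit was 61.5%, 52.3%, 62.9%, 62%, 64.3%, 58.2% and 63%. The genes held 25, 16, 31, 49, 50, 16 and 32 summits in all, in the same order of cultures. Ebf1, the longest of the 8 with a window of 411 kb, took between 12.9% (MEF SG) and 61.2% (MMTV-CAF WT) of them.

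**Figure D2:**
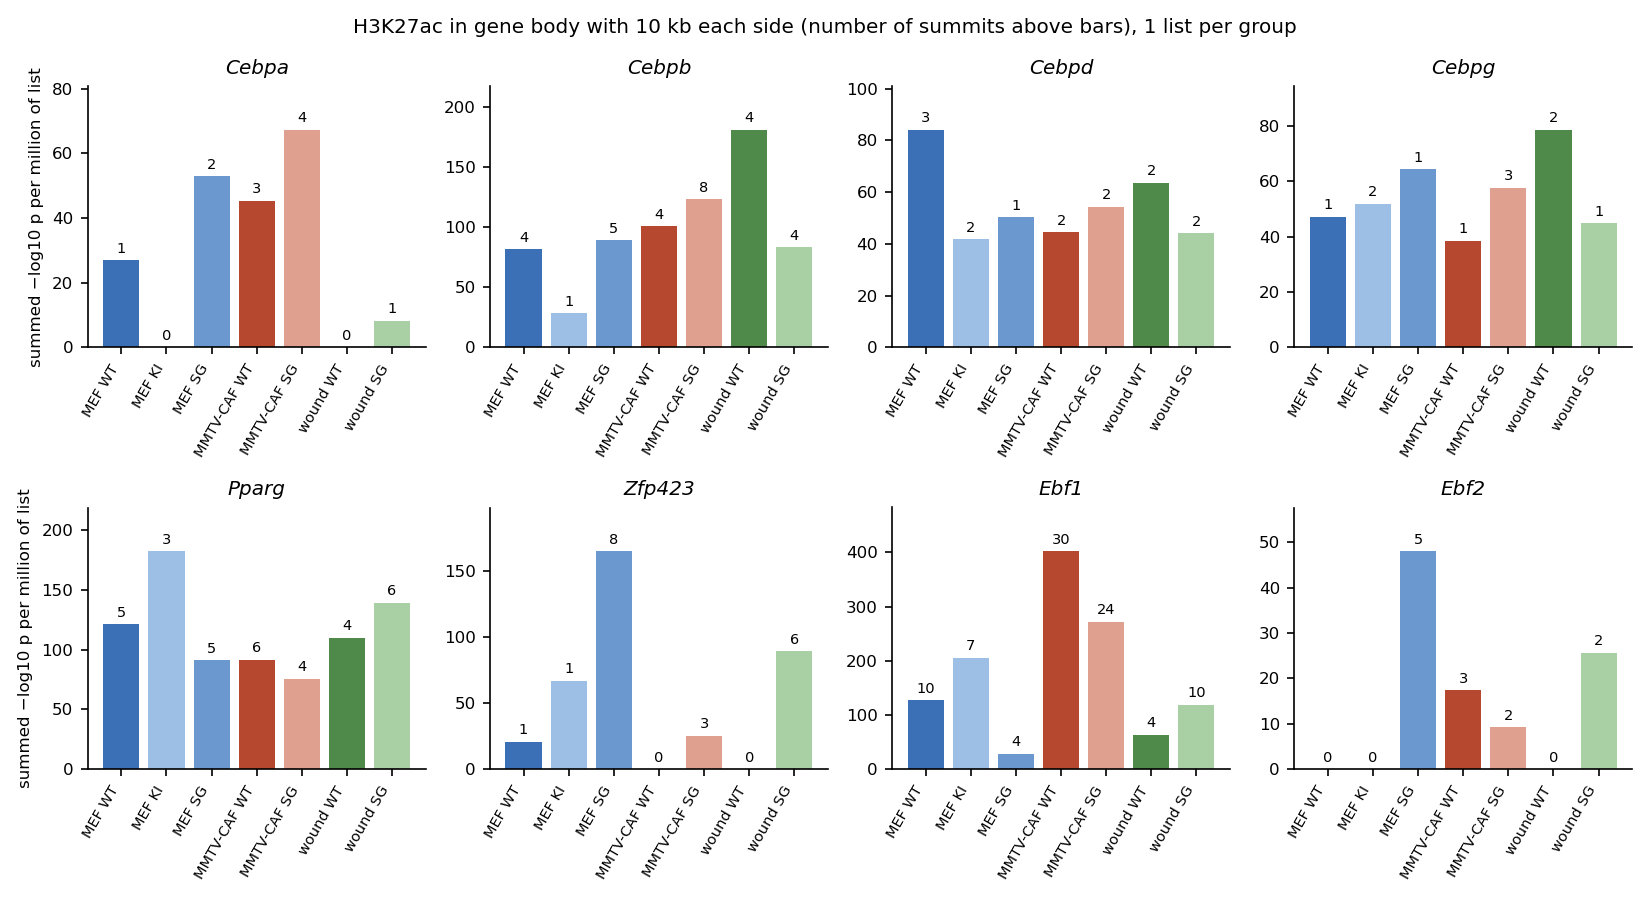
Relative H3K27ac signal, the summed −log10 p of the summits per 1000000 of the list's sum (vertical axis, from 0, its own scale in each panel) for each gene body with 10 kb on each side, 1 bar per culture and 1 list per group, with the number of summits above each bar. Zfp423 stands higher in every SG culture than in the WT culture of its type, and Ebf1 is highest in the MMTV-CAF cultures.

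Cebpb (ENSMUSG00000056501, chromosome 2, 167514415 to 167515918, + strand), which encodes the early factor C/EBPβ, carried both marks in all 7 cultures. Its H3K4me3 region measured 4430, 2944 and 3866 bp in the WT, KI and SG MEF, 6467 and 6635 in WT and SG MMTV-CAF, and 4651 and 5104 in WT and SG wound-healing cells. Its fold over input was 5.28, 3.31 and 6.23 in the WT, KI and SG MEF, 13.4 and 14.7 in WT and SG MMTV-CAF, and 9.02 and 10.7 in WT and SG wound-healing cells, and the MMTV-CAF values lay at the 98.2 and 98.1 percentile of all regions in their lists. MEF KI was lowest in width and fold, and the MMTV-CAF cultures highest. The number of H3K27ac summits was 4, 1 and 5 in the WT, KI and SG MEF, 4 and 8 in WT and SG MMTV-CAF, and 4 and 4 in WT and SG wound-healing cells. The relative signal was 81.6, 28.4 and 89.4 in the WT, KI and SG MEF, 101 and 123 in WT and SG MMTV-CAF, and 181 and 83.2 in WT and SG wound-healing cells. MEF KI was again lowest, WT wound-healing cells highest, and the value of SG wound-healing cells was close to those of MEF WT and MEF SG.

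The log2 ratio of that signal to the WT culture was −1.52 for KI and 0.13 for SG in MEF, 0.29 for SG in MMTV-CAF and −1.12 for SG in wound-healing cells. Cebpb was thus more than 2-fold lower in MEF KI and SG wound-healing cells, and within 2-fold in the other two SG cultures. In SG wound-healing cells the deposited sums gave a log2 ratio of −0.45 and both lists held 4 summits. In MEF KI, 1 summit remained of 4, in a list with fewer and weaker summits. There the log2 ratio was −0.99 among summits with a −log10 p of at least 10, within 2-fold, and −1.43 with lists of equal size, where 2 summits stood against 1 and too few were left for a call.

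At and downstream of Cebpb, H3K27ac extended over a long stretch in MMTV-CAF SG. When summits were joined over the customary distance of super-enhancer calling and the clusters were ranked by summed −log10 p, the Cebpb cluster of that list held 66 summits over 157.5 kb (chr2:167505461-167662963) and ranked 1 of 19061. Besides Cebpb the stretch overlaps the protein-coding gene Tmem189. The same stretch held 20 summits in MEF WT, 11 in KI MEF, 18 in SG MEF, 32 in MMTV-CAF WT, 21 in WT wound-healing cells and 23 in SG wound-healing cells. Its relative signal was 522, 361 and 448 in the MEF cultures, 877 in MMTV-CAF WT, 1200 in MMTV-CAF SG, and 922 and 667 in wound-healing cells (WT and SG). Every culture thus had H3K27ac along this stretch. The stretch was set by the summits of MMTV-CAF SG, which is also the longest list, so the higher count there is a description only. When the joining distance was 5 kb, the cluster at Cebpb in MMTV-CAF SG held 13 summits over 22.8 kb and ranked 87.

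Clusters above the point of slope 1 in that ranking, an approximation of super-enhancers, overlapped a window of the 8 genes in 3 cases. Cebpb had such a cluster in MMTV-CAF WT (rank 690, 9 summits) and in MMTV-CAF SG, and Ebf1 in MMTV-CAF WT (rank 1122 of the 1168 called). No such cluster lay at any of the 8 genes in the other 5 lists. Over all genes the share was 10.4%, 4.05%, 11.4%, 10.8%, 10.5%, 7.39% and 11.9% in the order of cultures used above. In WT wound-healing cells the Cebpb cluster ranked 902, outside the 777 called. With a joining distance of 5 kb there were again 3 cases, but Cebpb was then called in WT wound-healing cells and not in MMTV-CAF WT.

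**Figure D3:**
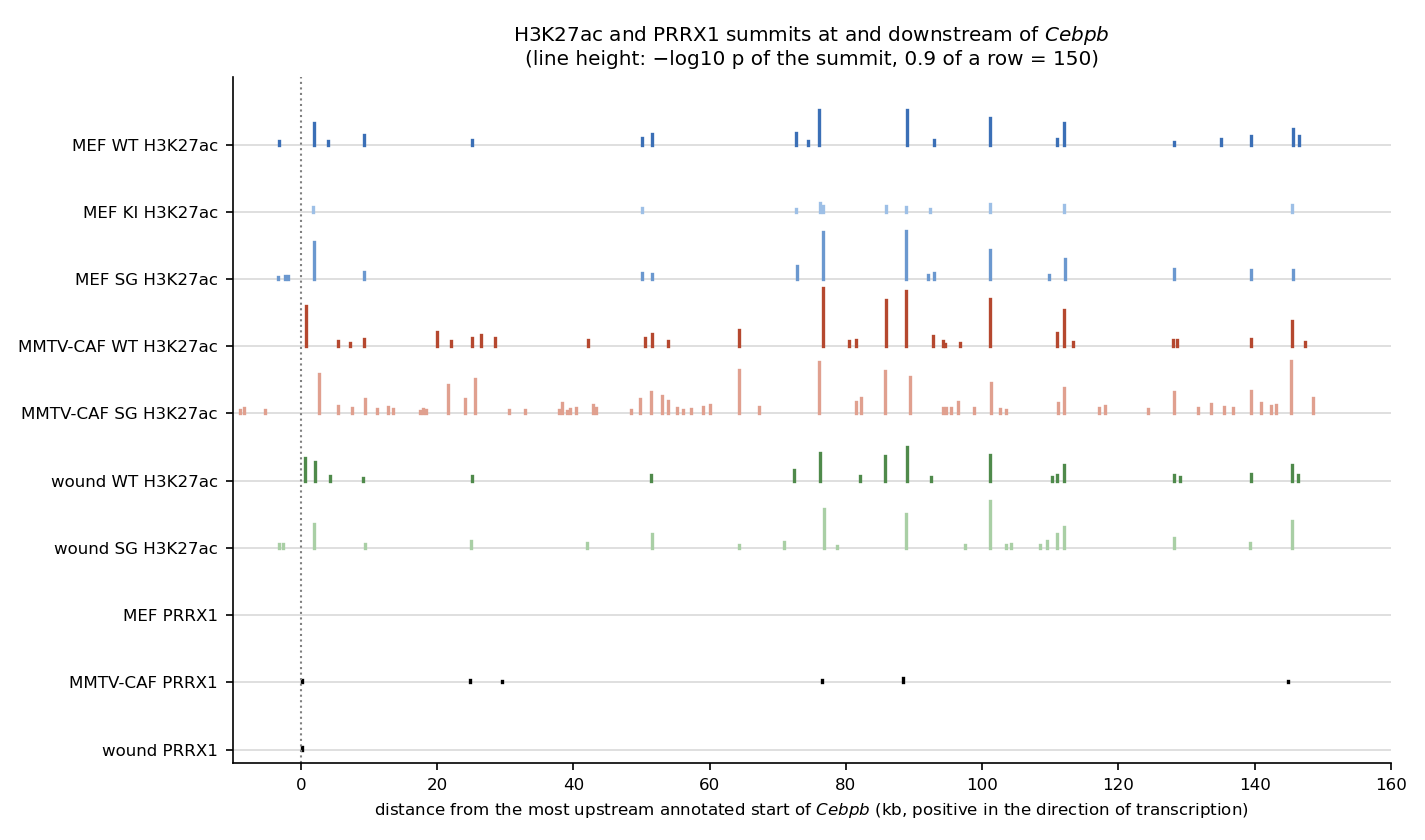
H3K27ac summits in the 7 cultures and PRRX1 summits in the 3 WT types around Cebpb, 1 row per list, placed by distance in kb from the gene's start (horizontal axis, positive in the direction of transcription). Line height is the −log10 p of the summit on the scale given in the title, and the row of MMTV-CAF SG holds 66 lines over the stretch, which was set by the summits of that list.

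Cebpd (ENSMUSG00000071637, chromosome 16, 15887379 to 15888559, + strand), the gene of the other early factor C/EBPδ, had a single start that H3K4me3 covered in every list. The width was 3807, 2596 and 2680 bp in the WT, KI and SG MEF, 4573 and 5726 in WT and SG MMTV-CAF, and 3310 and 3901 in WT and SG wound-healing cells. Both MMTV-CAF lists were above the rest, and MEF KI and MEF SG were narrower than MEF WT. The H3K27ac summits numbered 3, 2 and 1 in the WT, KI and SG MEF, 2 and 2 in WT and SG MMTV-CAF, and 2 and 2 in WT and SG wound-healing cells. The relative signal was 84.2, 41.9 and 50.4 in the WT, KI and SG MEF, 44.6 and 54.3 in WT and SG MMTV-CAF, and 63.7 and 44.2 in WT and SG wound-healing cells, so MEF WT was highest and the other 6 lay between 41.9 and 63.7. The log2 ratio to MEF WT was −1.01 in MEF KI and −0.74 in MEF SG. The first passed 2-fold narrowly and was −0.33 with 25 kb on each side. The window of Cebpd also overlaps 2310008H04Rik.

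Cebpa (ENSMUSG00000034957, chromosome 7, 35904312 to 35906945, + strand) encodes C/EBPα, which acts with PPARγ in the later steps. An H3K4me3 region covered its start in 6 lists, with widths of 3016 bp in MEF WT, 3086 in SG MEF, 3167 in MMTV-CAF WT, 4197 in MMTV-CAF SG, 2615 in WT wound-healing cells and 2067 in SG wound-healing cells. In MEF KI a region of 1003 bp ended at −317 bp from the start. In WT and SG MMTV-CAF the fold over input was 10.3 and 12.4, and in the other 4 it lay between 3.97 and 5.99. H3K27ac at Cebpa was sparse and differed between types: the relative signal was 27, none and 53.0 in the WT, KI and SG MEF, 45.4 and 67.4 in WT and SG MMTV-CAF, and none and 8.25 in WT and SG wound-healing cells. The summits numbered 1, 0 and 2 in the WT, KI and SG MEF, 3 and 4 in WT and SG MMTV-CAF, and 0 and 1 in WT and SG wound-healing cells. MMTV-CAF SG was thus highest, and MEF KI and WT wound-healing cells had no summit at all. The log2 ratio of MMTV-CAF SG to its WT was 0.57, within 2-fold.

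Cebpg (ENSMUSG00000056216, chromosome 7, 35831441 to 35841522, − strand), which lies 62.8 kb from Cebpa, encodes the partner protein C/EBPγ. Both marks lay at its start in every culture. The H3K4me3 width was 3204, 2313 and 2921 bp in the WT, KI and SG MEF, 4769 and 3272 in WT and SG MMTV-CAF, and 2704 and 3159 in WT and SG wound-healing cells. A single H3K27ac site at its start was present in all 7 lists, with a −log10 p of 54.6 in MEF WT, 10.8 in KI MEF, 94.0 in SG MEF, 53.8 in MMTV-CAF WT, 80.6 in MMTV-CAF SG, 40.4 in WT wound-healing cells and 48.3 in SG wound-healing cells. The relative signal of Cebpg ranged from 38.6 in MMTV-CAF WT to 78.8 in WT wound-healing cells, with MEF KI at 52.0 beside 47.3 in MEF WT. Its window also overlaps Pepd.

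Pparg (ENSMUSG00000000440, chromosome 6, 115311239 to 115440419, + strand) encodes PPARγ, the nuclear receptor that drives the fat cell program. Its H3K4me3 was narrow, at 678, 707 and 549 bp in the WT, KI and SG MEF, 1287 and 506 in WT and SG MMTV-CAF, and 1345 and 867 in WT and SG wound-healing cells. These regions all lay at the most upstream start, and none covered the start at 115372084, 60.8 kb further down. The fold over input was 3.27, 2.19 and 3.49 in the WT, KI and SG MEF, 6.47 and 3.40 in WT and SG MMTV-CAF, and 5.62 and 6.87 in WT and SG wound-healing cells. The MMTV-CAF lists also held a region 70594 and 70664 bp from the nearest start, 1711 bp wide in WT and 1410 bp in SG, near the end of the gene.

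Pparg had H3K27ac in every culture. The summits numbered 5, 3 and 5 in the WT, KI and SG MEF, 6 and 4 in WT and SG MMTV-CAF, and 4 and 6 in WT and SG wound-healing cells, and the relative signal was 121, 183 and 91.0 in the WT, KI and SG MEF, 91.7 and 75.7 in WT and SG MMTV-CAF, and 110.1 and 139 in WT and SG wound-healing cells. No contrast with WT passed 2-fold: the log2 ratio was 0.59 for KI and −0.42 for SG in MEF, −0.28 for SG in MMTV-CAF and 0.34 for SG in wound-healing cells. With the deposited sums the KI ratio was −0.93, and the ratio of SG wound-healing cells, at 1.02, passed 2-fold. Of the 8 places where summits fell (sites, summits of any list joined within 500 bp), 3 were held in all 7 lists. They lay 58.3, 71.0 and 71.9 kb from the nearest start, the nearest in an intron and the others beyond the end of the gene. At the site 71.9 kb away the −log10 p was 42.3 in MEF WT, 38.0 in KI MEF, 46.1 in SG MEF, 30.4 in MMTV-CAF WT, 43.2 in MMTV-CAF SG, 23.0 in WT wound-healing cells and 58.4 in SG wound-healing cells. The upstream start itself had H3K27ac in 4 lists, at 10.2 in SG MEF, 11.7 in MMTV-CAF WT, 16.3 in WT wound-healing cells and 14.2 in SG wound-healing cells. In all 7 lists the strongest acetylation of Pparg was thus away from its starts.

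PRRX1 summits at Pparg were found in wound-healing fibroblasts only, and 3 of them lay in its window. They were at 115413189 in an exon (−log10 p 7.07), at 115430094 in an intron (3.79) and at 115443532 beyond the gene (7.84), and the intronic summit ranked only 5355 of 5698. The intronic summit and that beyond the gene lay within 500 bp of H3K27ac summits of all 7 lists. The sequences around these (mm9, + strand) are printed because they join the PRRX1 summit to the acetylation found in every culture. Capitals mark TGANTCA, a relaxed form of the motif of AP-1 factors:

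Pparg intron, chr6:115430044-115430144: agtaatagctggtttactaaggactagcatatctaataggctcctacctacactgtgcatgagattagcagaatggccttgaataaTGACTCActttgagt

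Pparg downstream, chr6:115443482-115443582: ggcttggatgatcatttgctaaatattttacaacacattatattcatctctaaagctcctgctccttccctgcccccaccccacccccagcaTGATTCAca

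Zfp423 (ENSMUSG00000045333, chromosome 8, 90185709 to 90483494, − strand), the commitment factor of fat precursors, had more H3K27ac in SG than in WT of every type. Its H3K27ac summits numbered 1, 1 and 8 in the WT, KI and SG MEF, 0 and 3 in WT and SG MMTV-CAF, and 0 and 6 in WT and SG wound-healing cells. The relative signal was 20.7, 67.1 and 165 in the WT, KI and SG MEF, none and 25.3 in WT and SG MMTV-CAF, and none and 89.2 in WT and SG wound-healing cells. All 3 SG cultures were above the WT of their type, and MMTV-CAF WT and WT wound-healing cells had no summit in the window. In MEF SG the signal was 8.0-fold that of MEF WT (log2 3.0), with 8 summits against 1, and several of the 8 lay close together in pairs. MEF KI held a single summit, as MEF WT did, but at another place. Its log2 ratio to MEF WT was 1.70 for the relative signal but 0.18 for the deposited sums (23.9 to 27.1). In such bulk cultures, more cells with the mark and more of the mark per cell cannot be told apart.

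At least 2-fold more H3K27ac in SG than in WT of all 3 types was found at 14 of 6026 genes that could be compared, or 0.232%, and Zfp423 was 1 of them. Genes were counted as annotated entries, and the name 4930523C07Rik stands more than once among the 14. The endothelial marker Cdh5 was among them too. The MMTV-CAF difference was the smallest of the 3 and rested on 3 summits, of which 2 lay at the start. It no longer met the minimum of 3 summits when summits below a −log10 p of 10 were left out or the lists were cut to equal size.

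The acetylation of Zfp423 fell on 9 sites, of which 8 were absent from every WT list, beside 31.9% of sites genome-wide. The site at the upstream start had a −log10 p of 23.9 in MEF WT, 61.6 in SG MEF, 20.8 in MMTV-CAF SG and 24.4 in SG wound-healing cells. A site in an intron, 16.2 kb from a start, had 63.8 in MEF SG and 14.5 in SG wound-healing cells. A further intronic site, 101.5 kb from a start, had 12.1 in MEF SG and 10.5 in SG wound-healing cells. SG MEF and SG wound-healing cells thus had these places in common.

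One intronic site, 12.8 kb from the nearest start, was present in MEF KI and all 3 SG lists and in no WT list. Its −log10 p was 27.1 and 50.1 in the KI and SG MEF, and 8.87 and 9.32 in SG MMTV-CAF and SG wound-healing cells. Such a pattern was seen at 1 of the 90 sites of the 8 genes and at 46 of 100984 sites genome-wide, or 0.0456%. In MMTV-CAF SG an H3K4me3 region of 419 bp lay 12513 bp from the nearest start. The sequence at that site is shown for this pattern, and the bases upstream of the start for the H3K4me3 described next (mm9). Neither holds any of the 5 motifs that were searched, so no letter is in capitals:

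Zfp423 intronic site, chr8:90314859-90315059, + strand: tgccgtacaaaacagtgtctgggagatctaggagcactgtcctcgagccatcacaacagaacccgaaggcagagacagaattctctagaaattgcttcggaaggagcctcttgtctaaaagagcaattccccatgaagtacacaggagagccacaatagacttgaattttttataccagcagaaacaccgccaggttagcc

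Zfp423 upstream of the start, chr8:90483495-90483694, − strand: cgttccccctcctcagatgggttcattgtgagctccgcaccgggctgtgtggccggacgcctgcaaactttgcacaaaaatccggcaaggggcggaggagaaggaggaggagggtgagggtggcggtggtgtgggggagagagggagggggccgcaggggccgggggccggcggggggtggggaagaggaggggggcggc

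H3K4me3 at the upstream start of Zfp423 differed in extent. A region covered a start in MEF WT (2295 bp), MEF SG (2654 bp), MMTV-CAF SG (2038 bp) and SG wound-healing cells (2903 bp). In MEF KI a region of 780 bp began 256 bp downstream of the start, in MMTV-CAF WT one of 651 bp at 162 bp, and in WT wound-healing cells one of 1384 bp at 68 bp, with another of 750 bp ending at −423 bp. H3K4me3 was therefore near the start in all 7 lists and narrower where it missed the start. The fold over input of the covering regions was 3.59 in MEF WT, 3.65 in SG MEF, 8.53 in MMTV-CAF SG and 8.25 in SG wound-healing cells.

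**Figure D4:**
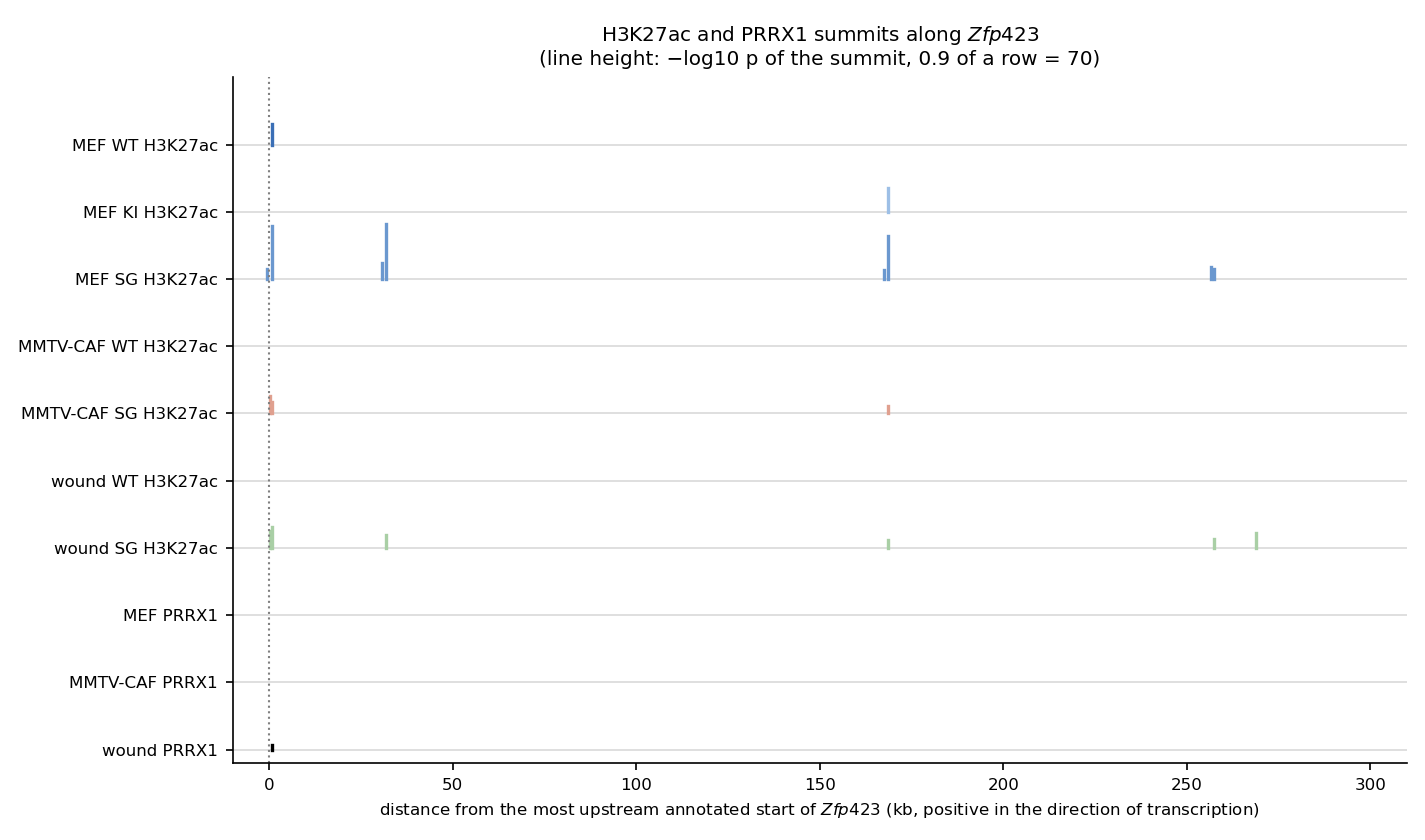
H3K27ac summits in the 7 cultures and PRRX1 summits in the 3 WT types along Zfp423, 1 row per list, placed by distance in kb from the most upstream start (horizontal axis, positive in the direction of transcription). Line height is the −log10 p of the summit on the scale given in the title. MEF SG shows 8 summits and SG wound-healing cells 6, while MMTV-CAF WT and WT wound-healing cells show none.

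A PRRX1 summit at Zfp423 was found in WT wound-healing cells only, 802 bp from the start and inside an H3K4me3 region of that culture (−log10 p 5.39, rank 3543 of 5698). It lay within 500 bp of H3K27ac summits of MEF WT, MEF SG, MMTV-CAF SG and SG wound-healing cells. In WT wound-healing cells, the culture in which it was called, the nearest H3K27ac summit was 160203 bp away.

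Ebf1 (ENSMUSG00000057098, chromosome 11, 44430819 to 44821593, + strand), an early B cell factor that also acts in fat precursors, was most strongly marked in MMTV-CAF. The H3K4me3 region at its upstream starts measured 4219, 6265 and 3579 bp in the WT, KI and SG MEF, 9300 and 8634 in WT and SG MMTV-CAF, and 3744 and 2615 in WT and SG wound-healing cells. The MMTV-CAF regions were at the 99.35 and 99.49 percentile of width in their lists and that of MEF KI at the 99.8. The fold over input was 4.74, 3.76 and 3.99 in the WT, KI and SG MEF, 8.79 and 8.58 in WT and SG MMTV-CAF, and 5.56 and 7.09 in WT and SG wound-healing cells. MMTV-CAF WT held 9 further regions over no start and MMTV-CAF SG 7.

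The H3K27ac summits of Ebf1 numbered 10, 7 and 4 in the WT, KI and SG MEF, 30 and 24 in WT and SG MMTV-CAF, and 4 and 10 in WT and SG wound-healing cells. Per 100 kb of window the number was 7.30 in MMTV-CAF WT and 5.84 in MMTV-CAF SG and at most 2.43 in the other 5, while their whole lists had 2.03 and 2.32 summits per 100 kb of genome. The relative signal was 128, 205 and 28.3 in the WT, KI and SG MEF, 403 and 272 in WT and SG MMTV-CAF, and 63.1 and 119 in WT and SG wound-healing cells. Both MMTV-CAF values exceeded all 5 others. Per 100 kb of window, the relative signal of Ebf1 in MMTV-CAF WT was 98, below that of Cebpa (200.4), Cebpb (469), Cebpd (210.4) and Cebpg (128). MEF SG was lowest.

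The ratios of Ebf1 to WT differed in sign between types. The log2 ratio to WT was −2.17 in MEF SG, a 4.51-fold lower signal, −0.56 in MMTV-CAF SG, and 0.91 in SG wound-healing cells. In MEF KI it was 0.69, but −0.83 with the deposited sums (147 to 83.0) and −0.51 by number of summits (10 to 7). Only the MEF SG ratio passed 2-fold, and the wound-healing ratio passed it when the deposited sums were compared (1.59) or the number of summits (1.32).

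Between WT cultures, Ebf1 was 3.16-fold higher in MMTV-CAF than in MEF and 6.38-fold lower in wound-healing fibroblasts than in MMTV-CAF. Of its 39 H3K27ac sites 37 were intronic and 20 were seen in a single list. A site 92.1 kb from the nearest start was seen in 6 lists, with a −log10 p of 27.7 in MEF WT, 14.1 in MEF KI, 48.9 in MMTV-CAF WT, 40.6 in MMTV-CAF SG, 8.72 in WT wound-healing cells and 24.4 in SG wound-healing cells, and MEF SG lacked it. Another, 36.3 kb from a start, was missing from WT wound-healing cells only. The sites of Ebf1 were thus mostly found in the MMTV-CAF lists.

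**Figure D5:**
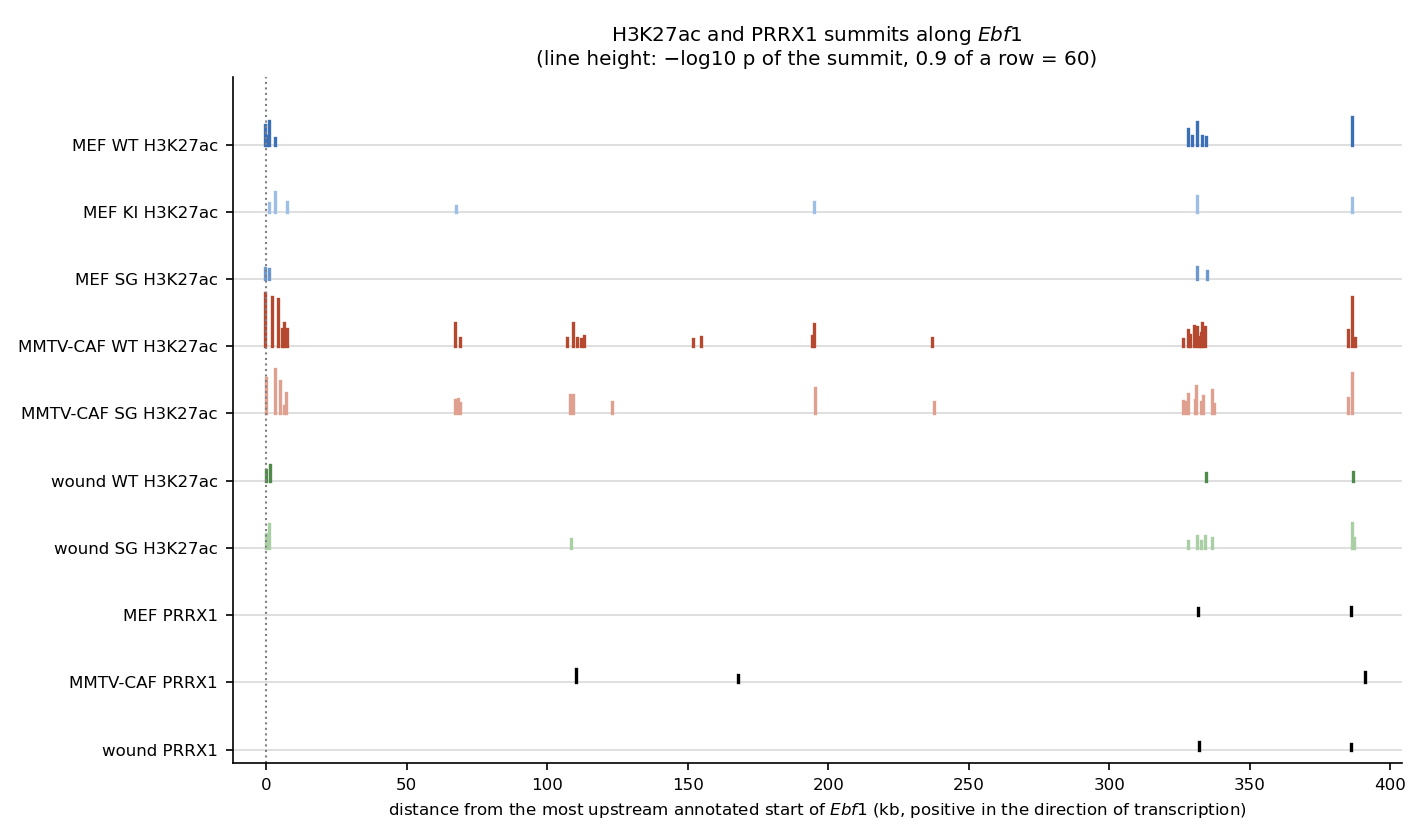
H3K27ac summits in the 7 cultures and PRRX1 summits in the 3 WT types along Ebf1, 1 row per list, placed by distance in kb from the most upstream start (horizontal axis, positive in the direction of transcription). Line height is the −log10 p of the summit on the scale given in the title. The MMTV-CAF rows carry 30 and 24 summits along the gene, those of MEF SG and WT wound-healing cells 4 each.

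PRRX1 summits were called in all 3 types at Ebf1, which has the longest window of the 8 genes. MEF had 2, at 44762282 (−log10 p 7.43) and 44816642 (7.99). Wound-healing fibroblasts had 2 nearby, at 44762612 (7.30) and 44816652 (5.39). MMTV-CAF had 3 at other places, at 44541108 (13.5), 44598688 (6.95) and 44821901 (10.0). That at 44541108 ranked 770 of 8000, the strongest at the 8 genes, and lay 97 bp from an H3K27ac summit of MMTV-CAF WT. The sequences (mm9, + strand) of a place shared by MEF and wound-healing fibroblasts and of an MMTV-CAF place are shown for their different letters. Capitals mark TGANTCA in the first and TAATTA, the core that homeodomain proteins bind, in the second:

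Ebf1 shared place, chr11:44816592-44816692: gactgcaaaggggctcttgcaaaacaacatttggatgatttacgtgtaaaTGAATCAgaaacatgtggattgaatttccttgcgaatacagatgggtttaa

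Ebf1 MMTV-CAF place, chr11:44598638-44598738: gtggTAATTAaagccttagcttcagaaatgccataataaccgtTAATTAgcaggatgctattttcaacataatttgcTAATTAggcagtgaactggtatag

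Ebf2 (ENSMUSG00000022053, chromosome 14, 67852129 to 68048604, + strand), the relative that acts in brown fat precursors, had the least acetylation per length of the 8 genes in MMTV-CAF SG and none in 3 cultures. Its summits numbered 0, 0 and 5 in the WT, KI and SG MEF, 3 and 2 in WT and SG MMTV-CAF, and 0 and 2 in WT and SG wound-healing cells. The relative signal was none, none and 48.1 in the WT, KI and SG MEF, 17.4 and 9.27 in WT and SG MMTV-CAF, and none and 25.6 in WT and SG wound-healing cells. MEF SG had the highest value, while MEF WT, MEF KI and WT wound-healing cells had no summit. In MMTV-CAF the order was the other way, with WT above SG (log2 −0.91). With lists of equal size, MEF SG no longer had the minimum of 3 summits. All 8 sites were intronic, and 5 of them were in no WT list.

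H3K4me3 covered the start of Ebf2 in MMTV-CAF SG only, with 4723 bp and a fold of 5.64. In 5 other lists a region began close downstream: 2244 bp at 754 bp in MEF WT, 2332 at 642 in MEF SG, 3942 at 149 in MMTV-CAF WT, 3795 at 520 in WT wound-healing cells and 1548 at 754 in SG wound-healing cells. MEF KI had none. H3K4me3 was thus at Ebf2 in 6 of 7 cultures, and what set MMTV-CAF SG apart was that its region reached the annotated start.

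The 8 genes were next counted by contrast, with a gene compared where either list had at least 3 summits. Between MEF KI and MEF WT, 4 could be compared, and Cebpb and Cebpd were at least 2-fold lower and none higher, beside 23.2% lower and 8.1% higher of all genes. In MEF SG, of 6 compared, Zfp423 and Ebf2 were higher and Ebf1 was lower, beside 5.99% and 4.5%. In MMTV-CAF SG, of 7 compared, only Zfp423 was higher and none lower, beside 8.73% and 6.32%. In SG wound-healing cells, of 4 compared, Zfp423 was higher and Cebpb lower, beside 8.48% and 5.46%. Both MEF contrasts share the MEF WT list. Where a ratio could be formed, in 4, 5, 6 and 3 of the genes compared, the median log2 ratio was −0.21, −0.42, 0.01 and 0.34 in these contrasts. Over all genes it was −0.15, 0.09, −0.05 and −0.07. The medians leave out genes without a WT summit that were called higher: Ebf2 in MEF SG, and Zfp423 in MMTV-CAF SG and SG wound-healing cells.

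Among WT cultures, MMTV-CAF exceeded MEF at Ebf1 and Ebf2 of 6 genes compared, with none lower, beside 9.95% higher and 8.14% lower of all genes. Wound-healing fibroblasts exceeded MEF at Cebpb (log2 1.15) and were lower at Ebf1 (−1.02) of 4 compared, beside 8.51% and 11.3%. Compared with MMTV-CAF, wound-healing fibroblasts were lower at Cebpa, Ebf1 and Ebf2 of 5 compared and higher at none, beside 12.2% and 7.78%. Ebf1 was thus the gene that separated the types most often, and these contrasts share WT lists too. For MMTV-CAF, fibroblast type and mouse strain cannot be told apart.

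Few H3K27ac sites of the 8 genes were found in every culture. Of the 90 sites at the 8 genes 4 were in all 7 lists, 3 at Pparg and 1 at Cebpg, beside 10.6% of all sites, and 42 were in a single list, beside 42.1%. Of the WT summits at the 8 genes, 10 of 25 were matched within 500 bp in the KI list, or 40% (Wilson 95% interval 23.4 to 59.3), beside 44.3% of the whole list. In MEF SG it was 14 of 25, or 56% (37.1 to 73.3), beside 68.2%. In MMTV-CAF SG it was 27 of 49, or 55.1% (41.3 to 68.1), beside 63.9%, and in SG wound-healing cells 11 of 16, or 68.8% (44.4 to 85.8), beside 67.7%. These intervals cover counting error only and contain the share of the whole list in all 4 cases.

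PRRX1 was called in the window of 1 of the 8 genes in MEF (Ebf1), 2 in MMTV-CAF (Ebf1 and Cebpb) and 4 in wound-healing fibroblasts (Ebf1, Cebpb, Pparg and Zfp423), beside 7.03%, 22.1% and 16.8% of all genes. Cebpa, Cebpd, Cebpg and Ebf2 had no PRRX1 summit. At Cebpb the summit lay inside the coding exon, 163 bp from the start in MMTV-CAF (−log10 p 7.12) and 192 bp in wound-healing fibroblasts (6.32), within the H3K4me3 region of each WT culture. The whole stretch at Cebpb described above, the summits in the exon included, held 6 PRRX1 summits in MMTV-CAF, 1 in wound-healing fibroblasts and 0 in MEF. The bases around the MMTV-CAF summit of Cebpb (mm9, + strand) are given because the wound-healing summit falls in them too, and none of the searched motifs is in them:

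Cebpb exon, chr2:167514528-167514628: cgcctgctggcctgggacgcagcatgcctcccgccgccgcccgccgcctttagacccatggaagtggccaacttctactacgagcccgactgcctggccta

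The letters around the few PRRX1 summits were counted by type. TAATTA stood within 100 bp of 0 of 2 summits in MEF, 3 of 4 in MMTV-CAF and 0 of 7 in wound-healing fibroblasts, beside 69.1%, 35.45% and 41.9% of all PRRX1 summits in those lists. TGANTCA stood at 1 of 2, 0 of 4 and 4 of 7, beside 12.9%, 18.25% and 13.0%. The 3 TAATTA summits of MMTV-CAF were all at Ebf1. The 4 TGANTCA summits of wound-healing fibroblasts were the 3 of Pparg and 1 of Ebf1, and the latter is the same place as the 1 in MEF. Motifs were read on both strands, and a match is a description of letters, not a bound site.

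The promoters of the 8 genes were searched for the same letters and for those of C/EBP and EBF motifs. In the 200 bases upstream of the 20 annotated starts, CCCNNGGGA, the core of the EBF motif, was found at 1 start of Cebpg, beside 4.87% of all starts. The letters TAATTA were found at none, beside 2.96% of all starts, and TGANTCA at none, beside 4.60%. The C/EBP letters TTGCGCAA were found at none, beside 0.167%, and their spaced form TTGCNNCAA at none, beside 1.33%. RefSeq promoter sequences (GRCm38.p6) matched 6 of the 8 genes, all but Cebpd and Ebf2. Of their 10 promoters 1, that of Cebpb, held CCCNNGGGA in the 250 bases before the start, beside 6.56% of 32851. It is shown because it is the only match among them, with the match (here on the other strand) in capitals:

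Cebpb promoter, RefSeq, GRCm38.p6, + strand: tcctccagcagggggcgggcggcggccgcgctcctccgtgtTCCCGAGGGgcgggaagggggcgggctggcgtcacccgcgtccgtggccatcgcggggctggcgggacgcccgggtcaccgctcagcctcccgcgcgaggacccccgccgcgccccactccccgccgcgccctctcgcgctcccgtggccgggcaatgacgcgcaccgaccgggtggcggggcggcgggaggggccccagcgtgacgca

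Other genes of fat cell formation were taken from a list of 45. Of those with enough summits, 1 was at least 2-fold higher and 6 lower of 24 in MEF KI, 2 and 2 of 27 in MEF SG, 4 and 2 of 32 in MMTV-CAF SG, and 1 and 3 of 20 in SG wound-healing cells. Over all genes the shares higher and lower were 8.1% and 23.2%, 5.99% and 4.5%, 8.73% and 6.32%, and 8.48% and 5.46%, in this order. Zfp521, which encodes a relative of ZFP423 known to restrain fat cell formation, was lower in all 4, beside 0.0534% of all genes compared in all 4 (3 of 5620). It is named because it was called one way in at least 3 of the 4 contrasts, both MEF contrasts share the MEF WT list, and the count is a description only. Its summits numbered 16 in MEF WT, 3 in KI MEF, 9 in SG MEF, 22 in MMTV-CAF WT, 0 in MMTV-CAF SG, 5 in WT wound-healing cells and 2 in SG wound-healing cells. Its relative signal was 265, 74.1, 113, 327, 0, 100.0 and 21.3 in the same order, so that each altered culture lay below its WT. H3K4me3 still covered a start of Zfp521 in all 7 lists, over 3623 to 6052 bp.

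Among the other relatives, Cebpe, the C/EBP gene of granulocytes, had neither mark in any list. Ddit3, which encodes the C/EBP partner of the stress response, had 2 to 6 H3K27ac summits in every list. Ebf3 had 6, 6 and 7 summits in the MEF cultures, 0 in both MMTV-CAF cultures, and 3 and 2 in wound-healing cells (WT and SG), and was thus lowest in the type in which Ebf1 was highest. Of the 11 genes that favour fat cell formation 7 to 11 had H3K4me3 at a start, and of the 8 that restrain it 6 to 8. The 7 precursor markers had it in 2 to 4 cases and the 14 genes of fat cell products in 5 to 9, beside 41.4% to 55.2% of all genes. Fabp4, the fatty acid carrier of fat cells, had it in the MMTV-CAF cultures only (266 bp in WT and 1965 bp in SG). Adipoq, the gene of the fat cell hormone adiponectin, had it in none, with 0 to 3 H3K27ac summits.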

How the data were processed

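Paired-end reads had been trimmed (Trimmomatic), mapped to mm9 (Bowtie) and cleared of duplicates (Picard) by the authors, who then called peaks over input using MACS2, sharp peaks at a −log10 p of 5 and broad ones with a cutoff of 0.1. Depth is not given in the sources used here, and the PRRX1 lists hold summits below that −log10 p. The paper also reports PRRX1 ChIP-seq in duplicate with IgG as a control, while the series holds 1 PRRX1 list per fibroblast type. The deposited H3K27ac and PRRX1 lists give summits with their −log10 p. The deposited H3K4me3 lists give regions with a score, a fold over input, a −log10 p and a −log10 q. Each group is 1 library, so no test was run.

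Gene windows, starts and bases came from GENCODE annotation and sequence of NCBIM37 (mm9). Summits were counted per window, and −log10 p was summed and scaled to 1000000 per list. A gene was called at a ratio of at least 2 with at least 3 summits in either list. Super-enhancers were approximated by joining summits within 12.5 kb. All 8 genes were described, with Cebpe, Ddit3, Ebf3, Zfp521, Fabp4, Adipoq and any of the 45 listed genes called one way in at least 3 of 4 contrasts. Likeness was Pearson's r over the 7 H3K27ac lists. The likeness result of Cebpd is not reported here. The 8 genes and the lists of other genes were chosen with earlier results of these data known. The scripts (Python 3.11.15, pandas 2.3.3, numpy 2.4.6, scipy 1.17.1, matplotlib 3.10.9) were tested on simulated data. Alternatives changed the flank, the scaling, the summit minimum, list size, width, distance and joining.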

Additional observations from a re-analysis of the deposited data

Results flagged for a closer look

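Cebpb and Ebf1 are listed because, where enough summits were called, their H3K27ac ratios to WT differed in sign between fibroblast types with at least 1 of them past 2-fold. Ratios of both signs were found at Cebpd, Cebpg and Pparg too. For Cebpb the log2 ratio of the relative signal to WT was −1.52 in MEF KI and −1.12 in wound-healing SG, but 0.13 in MEF SG and 0.29 in MMTV-CAF SG. KI and SG MEF are of 1 fibroblast type, and both positive Cebpb ratios were within 2-fold and not stable in sign, at −0.02 in MEF SG with a flank of 25 kb and −0.24 in MMTV-CAF SG with one of 5 kb. For Ebf1 it was −2.17 in MEF SG and −0.56 in MMTV-CAF SG, but 0.69 in MEF KI and 0.91 in wound-healing SG. Only the MEF SG ratio passed 2-fold, and that of MEF KI was −0.83 with the deposited sums. With 1 library in each group the difference was not tested for either gene.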

How the results depend on the processing

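No paired analysis was possible because each group is a single library and the labels carry no replicate numbers. Of 84 alternatives to the counts given, 64 stayed within 1.5 times of the value and 20 did not. Of 104 alternatives to the log2 ratios of single genes 91 kept the call. No ratio past 2-fold changed sign, but smaller ones did, among them in MEF KI Pparg from 0.59 to −0.93 with deposited sums and −0.74 by number of summits and Ebf1 from 0.69 to −0.83 and −0.51, and in wound-healing SG Cebpd from −0.53 to 0.15 with deposited sums. Cases with H3K4me3 wider than 4 kb went from 14 to 26 at 3 kb and 7 at 5 kb, by construction. With lists of equal size the summits at the 8 genes went from 219 to 126. Genes lower in MEF KI went from 2 to 1 by number of summits, with a flank of 25 kb, with −log10 p of at least 10 and with equal list size. In MEF SG the higher genes went from 2 to 1 at equal list size and the lower from 1 to 2 by number of summits. In MMTV-CAF SG the higher genes went from 1 to 3 by number of summits and to 0 with −log10 p of at least 10 and at equal list size. In wound-healing SG the higher genes went from 1 to 3 with deposited sums and 2 by number of summits, and the lower from 1 to 0 with deposited sums, by number of summits and with a flank of 25 kb. Summits kept in MMTV-CAF SG went from 55.1% to 77.6% within 1 kb, genes with PRRX1 (counted per type) from 7 to 1 at −log10 p of at least 10, and super-enhancer cases from 3 to 1 with the 500 top clusters. Apart from the alternatives that by construction leave fewer summits, the cause was not tested. Depth is unknown, and a missing summit may be one below the calling threshold.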

Other observations

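For the genes other than Cebpd, the 2 genes with the most similar H3K27ac profile over the 7 lists were looked up among 6467 to 6469 genes, as Pearson's r of the log2 relative signal. They were Plac8 and Chd5 for Cebpa (both r = 0.99), Ebi3 and Zcchc14 for Cebpb (both 0.99), Smurf1 and Prosc for Cebpg (0.94 and 0.93), and Ltbp1 and Lrrc28 for Pparg (0.99 and 0.97). Zfp423 was most like Kcnq1 (r = 0.99) and Sgip1 (0.98), Ebf1 like Hsf2bp and Lrrk2 (both 0.96), and Ebf2 like Fam65b and Sh3gl3 (both 0.94). The 7 points are the lists themselves, which differ in size and strength for every gene, and the values are a description only.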
